A study of Homo sapiens with 12 samples.

Results

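The RIG-I-like receptor module was followed through 5 genes, chosen by gene name out of 60609 annotated genes: the receptors DDX58, IFIH1 and DHX58, the ubiquitin ligase TRIM25 and the adaptor MAVS. They were chosen with earlier results of these data known. All 5 passed the filter on low values, which kept 17185 genes. Polyadenylated RNA was sequenced from NS-SV-AC, a human salivary gland acinar line immortalised with SV40, so every group shares that background. The series asks about double-stranded RNA of mitochondrial origin in Sjögren's syndrome. Cells received the solvent DMSO, 2-CM (2'-C-methyladenosine, a nucleoside analogue) or RES (resveratrol, a plant polyphenol), and were then transfected either with what the labels name depc or with poly I:C, a double-stranded RNA made in vitro. The 6 groups were DMSO depc, DMSO poly I:C, 2-CM depc, 2-CM poly I:C, RES depc and RES poly I:C, with 2 libraries each. Per the labels, 2-CM and RES were used at 20 (unit read as micromolar) from 24 h before transfection and again with it, poly I:C stayed for 14 h, and cells were cultured for 48 h.

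RIG-I (DDX58) and MDA5 (IFIH1) are cytosolic helicases that bind double-stranded RNA, RIG-I mainly short or end-marked duplexes and MDA5 long ones. TRIM25 attaches ubiquitin chains that help RIG-I to engage MAVS, a protein of the mitochondrial outer membrane, and MAVS filaments then activate the kinases and transcription factors that switch on type I interferon genes. LGP2 (DHX58) binds the same RNA but lacks the domain that contacts MAVS, and tunes the other receptors. The receptor genes are themselves interferon-stimulated genes, so sensing and its induction form a loop.

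Annotated transcripts drew 3.15 to 4.99 gigabases of sequence per library. No label says that replicates were separate cultures, so p-values measure only the spread between these libraries, which may be technical. The replicates of every group differed along gene GC content: across the tested genes, Spearman's rho between GC content and the replicate 1 minus replicate 2 difference ran from -0.78 in RES depc to 0.77 in RES poly I:C. Under 2-CM the trend also ran with the treatment: rho between GC content and a library's deviation from the gene mean was 0.686 and 0.784 in 2-CM depc but -0.745 and -0.687 in 2-CM poly I:C, so low-GC genes stood higher in both poly I:C libraries. In the other groups the 2 replicates had opposite signs. DDX58 (40% GC) and IFIH1 (39.8%) lie low among tested genes, whose median is 48.4%, while TRIM25 (48%), MAVS (52.1%) and DHX58 (56.5%) lie near or above it. Of 12 acinar markers, 6 (among them AQP5, MUC7 and STATH) were listed at 0 in all libraries, and only BHLHA15 and SLC12A2 passed the filter, so the acinar label rests on the labels rather than on secretory genes. The 5 epithelial markers were split: KRT8 and KRT18 reached median TPM of 1040 and 668, whereas KRT19, CDH1 and EPCAM stayed at or below 0.243, 0.596 and 1.23 in every library, and PTPRC, CD3E and MS4A1, which define leukocytes, were listed at 0 throughout.

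Because 4 of the 5 genes moved together with poly I:C, the RefSeq promoters (GRCh38.p14, 250 bases before to 50 after the start) were searched for motifs of interferon signalling on both strands. The RefSeq start equalled the start of the main transcript in the deposited files for the 4 members found in the promoter set: DDX58 (as RIGI), IFIH1, TRIM25 and MAVS. DHX58 had no promoter in the set and was not searched. The windows that hold matches are shown 5′ to 3′ on the gene's strand, with matches in capitals, and positions counted from the start site, -1 being the base before it. They lie on the minus strand at chr9:32526317-32526416 (from -220), chr2:162318685-162318854 (from -170) and chr17:56914045-56914109 (from -60).
DDX58: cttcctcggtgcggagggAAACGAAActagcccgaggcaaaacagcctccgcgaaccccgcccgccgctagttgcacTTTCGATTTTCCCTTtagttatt
IFIH1: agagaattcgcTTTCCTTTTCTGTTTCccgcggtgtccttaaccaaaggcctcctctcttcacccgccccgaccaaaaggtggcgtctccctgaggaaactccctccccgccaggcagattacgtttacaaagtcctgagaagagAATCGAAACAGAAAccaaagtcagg
TRIM25: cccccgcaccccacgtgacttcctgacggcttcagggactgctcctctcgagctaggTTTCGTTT
The core of the interferon-stimulated response element, GAAA then any 2 bases then GAAA, is held by 3.57% of 35116 promoters of this length. IFIH1 had 3 matches to it, at -21 on its own strand and at -153 and -159 on the opposite strand, while DDX58, TRIM25 and MAVS had none. AANNGAAA, the shorter site of interferon regulatory factors, was added after the first motifs had been searched and is held by 22.8% of promoters. Every match of the first motif contains it. DDX58 had 3 matches (-202 on its own strand, -136 and -143 on the opposite strand), IFIH1 had 4, TRIM25 had 1 that spans the start site on the opposite strand, and MAVS had none. TTCNNNGAA, the gamma-activated site, is held by 7.66% of promoters and by none of the 4. The GC content of these promoters was 50.7% for IFIH1, 60.3% for DDX58, 71.7% for MAVS and 72.3% for TRIM25. The shares of all promoters were not matched to it. A match is a run of letters and was not tested for binding.

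With poly I:C, the mRNAs of the 3 receptors and of TRIM25 were higher and that of MAVS was lower in all 6 libraries than in any of the 6 depc libraries. The lowest poly I:C value of DDX58 was 12.9 TPM (transcript abundance per length, scaled to the same sum in every library) against a highest depc value of 3.47. The same pair of values was 9.52 and 4.41 TPM for IFIH1, 14.3 and 6.75 for DHX58, and 80.6 and 51.4 for TRIM25. For MAVS the highest poly I:C value was 17.3 TPM and the lowest depc value 18.2, which overlapped on FPKM but not under the other scalings. Among all tested genes, 1.33% were higher and 6.34% lower in this way. In bulk RNA, a change in the number of cells of a type and a change in RNA per cell cannot be told apart.

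**Figure D1:**
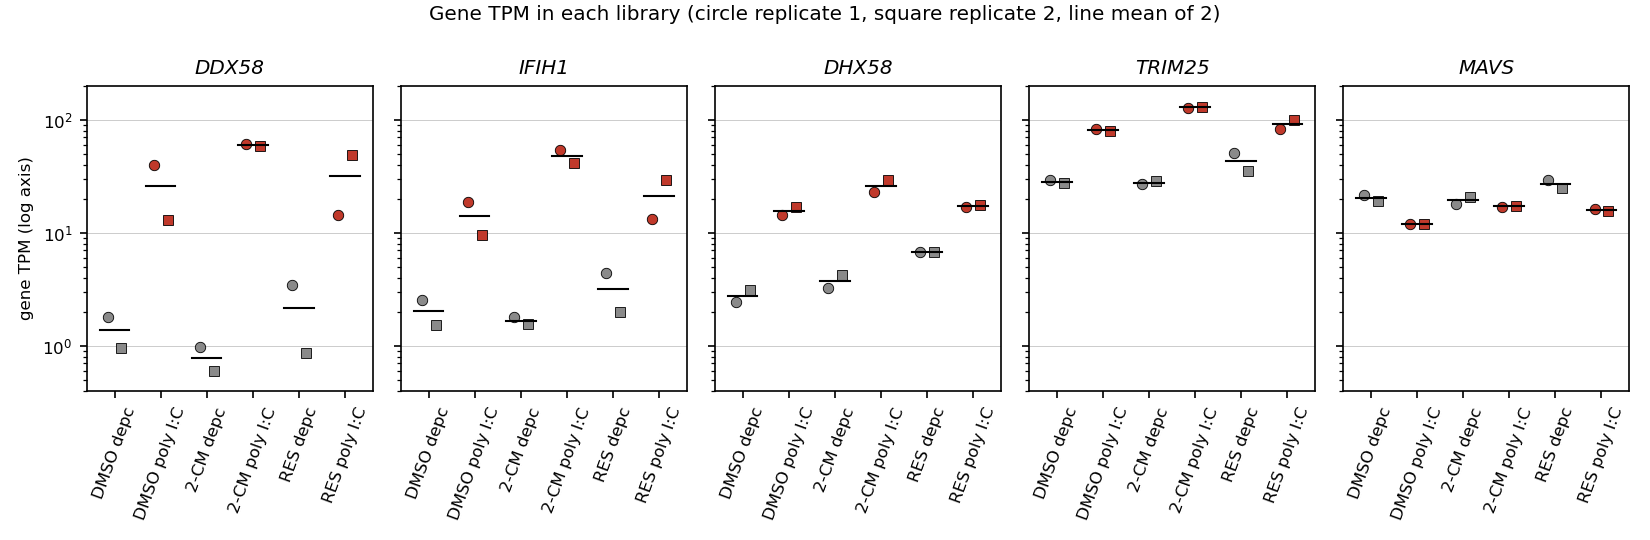
Gene TPM (log axis) of the 5 genes in each of the 12 libraries, by group. Circles are replicate 1, squares replicate 2 and lines the mean of 2. Red poly I:C libraries lie above all grey depc libraries for DDX58, IFIH1, DHX58 and TRIM25 and below them for MAVS, and the replicates of DDX58 and IFIH1 lie far apart in DMSO poly I:C and RES poly I:C.

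Averaged over the 3 compounds, the limma fit on log2(TPM + 1) called all 5 genes at a Benjamini-Hochberg adjusted p under 0.05, 4 higher and MAVS lower. Of all tested genes, 13.4% were called higher and 17.8% lower in this comparison, and the median change of all genes was 0.16, against 1.95 for the 5. DDX58 rose by 3.91 (SE 0.39, adjusted p 7.34e-04), IFIH1 by 2.94 (SE 0.27, adjusted p 4.72e-04), DHX58 by 1.95 (SE 0.13, adjusted p 8.93e-05) and TRIM25 by 1.59 (SE 0.11, adjusted p 1.40e-04). MAVS fell by 0.54 (SE 0.11, adjusted p 0.00826). Because 1 was added to each TPM before taking logs, the change of a low gene such as DDX58 is understated. All 5 calls held when any single library was left out.

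DDX58 (ENSG00000107201.10, hg38 chr9:32455302-32526208, minus strand, main transcript of 18 exons) had the widest range. Without poly I:C it stood at 1.79 and 0.953 TPM in DMSO, 0.978 and 0.597 in 2-CM, and 3.47 and 0.868 in RES. Poly I:C libraries held 39.6 and 12.9 TPM of it in DMSO, 61.7 and 58.7 in 2-CM, and 14.5 and 49.3 in RES. The 2-CM poly I:C pair was thus high and tight, while the DMSO and RES poly I:C pairs were 3.08-fold and 3.41-fold apart, in opposite order. The ratio of mean TPM was 19.1 (DMSO), 76.5 (2-CM) and 14.7 (RES). On the log2(TPM + 1) scale DDX58 rose by 3.34 under DMSO (SE 0.67, adjusted p 0.0365) and by 5.11 under 2-CM (adjusted p 0.00889), or by 3.44 under 2-CM after correction for GC content. Under RES the change was 3.27 (adjusted p 0.0941). Reads behind these values numbered 76.1 to 6380 (estimated from coverage), so the depc levels are the least precise.

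IFIH1 (ENSG00000115267.8, chr2:162267074-162318684, minus strand, 16 exons), the sensor of long duplexes, followed the same course at lower amplitude. Its depc levels were 2.55 and 1.53 TPM in DMSO, 1.8 and 1.55 in 2-CM, and 4.41 and 1.99 in RES. After poly I:C they were 18.6 and 9.52 TPM in DMSO, 54.2 and 41.4 in 2-CM, and 13.2 and 29.6 in RES. No poly I:C library overlapped a depc library, and both 2-CM poly I:C libraries exceeded the other 4 with poly I:C. The share of all genes in which the 2-CM pair was highest was not counted. On the log2 scale the median of all genes was 0.59 higher in 2-CM poly I:C than in DMSO poly I:C. The ratio of means was 6.89 (DMSO), 28.5 (2-CM) and 6.69 (RES). IFIH1 rose by 2.26 under DMSO (SE 0.46, adjusted p 0.038) and by 4.18 under 2-CM (adjusted p 0.0042), or by 2.50 under 2-CM after correction for GC content, and the change under RES was 2.37 (adjusted p 0.0819). In 3 of 11 alternative settings DDX58 lost its DMSO call, and so did IFIH1 in 3 of 11. The DDX58 and IFIH1 calls under DMSO were both lost when any of the DMSO or 2-CM libraries was left out, with log2 changes of 2.57 to 4.12 for DDX58 and 1.81 to 2.71 for IFIH1. Under 2-CM, the DDX58 call was lost without any 1 of the 4 2-CM libraries, and that of IFIH1 without either 2-CM depc library or 2-CM poly I:C replicate 1.

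The replicate gaps of these 2 receptors moved with the GC trend of their libraries. DDX58 in replicate 1 minus replicate 2 was 1.55 on the log2 scale in DMSO poly I:C, 1.26 in RES depc and -1.70 in RES poly I:C, where the trend turned sign. After a lowess correction of each library for GC content these gaps were 0.48, 0.11 and -0.79. For IFIH1 they went from 0.90, 0.85 and -1.11 to -0.18, -0.31 and -0.18. The correction also removes any part of a response that follows GC content across genes. Whether GC content causes the gaps was not tested.

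DHX58 (ENSG00000108771.13, chr17:42101404-42112714, minus strand, 14 exons), which encodes LGP2, had replicates within 1.3-fold in every group, against up to 4-fold for DDX58 and 2.24-fold for IFIH1. It measured 2.46 and 3.12 TPM in DMSO depc, 3.27 and 4.24 in 2-CM depc, and 6.75 and 6.74 in RES depc. Poly I:C libraries gave 14.3 and 16.9 TPM in DMSO, 22.9 and 29.2 in 2-CM, and 16.8 and 17.6 in RES. RES depc thus had the highest level without poly I:C, and 2-CM poly I:C the highest with it. The ratio of means was 5.57 (DMSO), 6.93 (2-CM) and 2.55 (RES). DHX58 rose by 2.13 under DMSO (SE 0.22, adjusted p 0.00416, lost without DMSO depc replicate 1) and by 2.50 under 2-CM (adjusted p 0.00129). The change under RES was 1.23 (adjusted p 0.0646).

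TRIM25 (ENSG00000121060.18, chr17:56836387-56914080, minus strand, 9 exons) had the highest TPM of the 5 in every group and the lowest poly I:C to depc ratio of the 4 genes that were higher. It measured 29.3 and 27.4 TPM in DMSO depc, 27 and 28.8 in 2-CM depc, and 51.4 and 35.5 in RES depc. Poly I:C brought it to 83.8 and 80.6 TPM in DMSO, 129 and 131 in 2-CM, and 83.7 and 99.4 in RES. The 2-CM poly I:C pair again lay above the other poly I:C libraries, and the groups with and without poly I:C did not overlap. How many of all genes had the 2-CM pair highest was not counted. The median of all genes was itself 0.59 higher in 2-CM poly I:C than in DMSO poly I:C on the log2 scale. After GC correction the 2-CM pair was at 6.59 and 6.63, below DMSO poly I:C replicate 2 at 6.71. The ratio of means was 2.9 (DMSO), 4.65 (2-CM) and 2.11 (RES). TRIM25 rose by 1.5 under DMSO (SE 0.20, adjusted p 0.0106) and by 2.18 under 2-CM (adjusted p 0.00139), and the change under RES was 1.07 (adjusted p 0.0659). The DMSO call was lost without any 1 of the 4 DMSO libraries, with values of 1.46 to 1.55. The annotation places 6 other genes over TRIM25, DGKE and C17orf67 among them, but none exceeded 7.01 TPM. No strand option was set, so reads of TRIM25 and of DGKE on the opposite strand cannot be told apart where they overlap.

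MAVS (ENSG00000088888.18, chr20:3846799-3876123, plus strand, 7 exons), the shared adaptor, went the other way. Without poly I:C it stood at 21.6 and 19.2 TPM in DMSO, 18.2 and 20.8 in 2-CM, and 29.7 and 24.8 in RES. Poly I:C libraries had 12.1 and 12 TPM in DMSO, 17.1 and 17.3 in 2-CM, and 16.3 and 15.6 in RES. Each poly I:C pair was tight and below its depc pair, and the depc mean was 1.7-fold the poly I:C mean under DMSO, 1.13-fold under 2-CM and 1.71-fold under RES. No single compound reached the threshold: the log2 change with DMSO was -0.72 (SE 0.18, adjusted p 0.0685), -0.17 under 2-CM (adjusted p 0.446) and -0.73 under RES (adjusted p 0.151). Under DMSO the call was gained with GC correction (-0.54, adjusted p 0.0126), when low genes were kept and with a TPM minimum of 5, and under RES with GC correction (-0.58, adjusted p 0.0267). Under 2-CM the value depended on scaling, being -0.97 with median-of-ratios scaling (adjusted p 0.0273) and -0.76 with upper-quartile scaling (adjusted p 0.0356).

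In the comparisons within 1 compound, 4 of 5 genes were called higher under DMSO and under 2-CM, and none under RES, where 5 of 5 had an unadjusted p under 0.05 and limma-voom called 1. An unadjusted p under 0.05 was also found for 2409 of 17185 tested genes under RES. The DMSO count fell to 0 with only the groups compared, and it also fell with the replicate block. The shares of all tested genes called higher and lower were 0.797% and 3.28% under DMSO, 37.5% and 11.8% under 2-CM, and 0.198% and 0.244% under RES. Over all genes the median change was -0.14 (DMSO), 0.61 (2-CM) and -0.03 (RES), and median-of-ratios scaling brought the 2-CM median to 0.03 and the 2-CM shares to 20.3% higher and 23.5% lower. On that scale the 2-CM changes were 4.44 for DDX58, 3.45 for IFIH1, 1.74 for DHX58 and 1.34 for TRIM25, all with an adjusted p under 0.05. Under RES limma on that scale called DDX58 (3.29, adjusted p 0.0183) and IFIH1 (2.38, adjusted p 0.00892). There 0.215% of all genes were called higher and 0.0116% lower. The direction of each of the 5 genes was the same in all 215 alternative values of these 4 comparisons, left-out libraries aside. Under RES, GC correction called all 5, with values of 2.96, 2.06, 1.57 and 1.05 for DDX58, IFIH1, DHX58 and TRIM25 and -0.58 for MAVS. In that fit 1.33% of all genes were called higher and 1.83% lower.

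**Figure D2:**
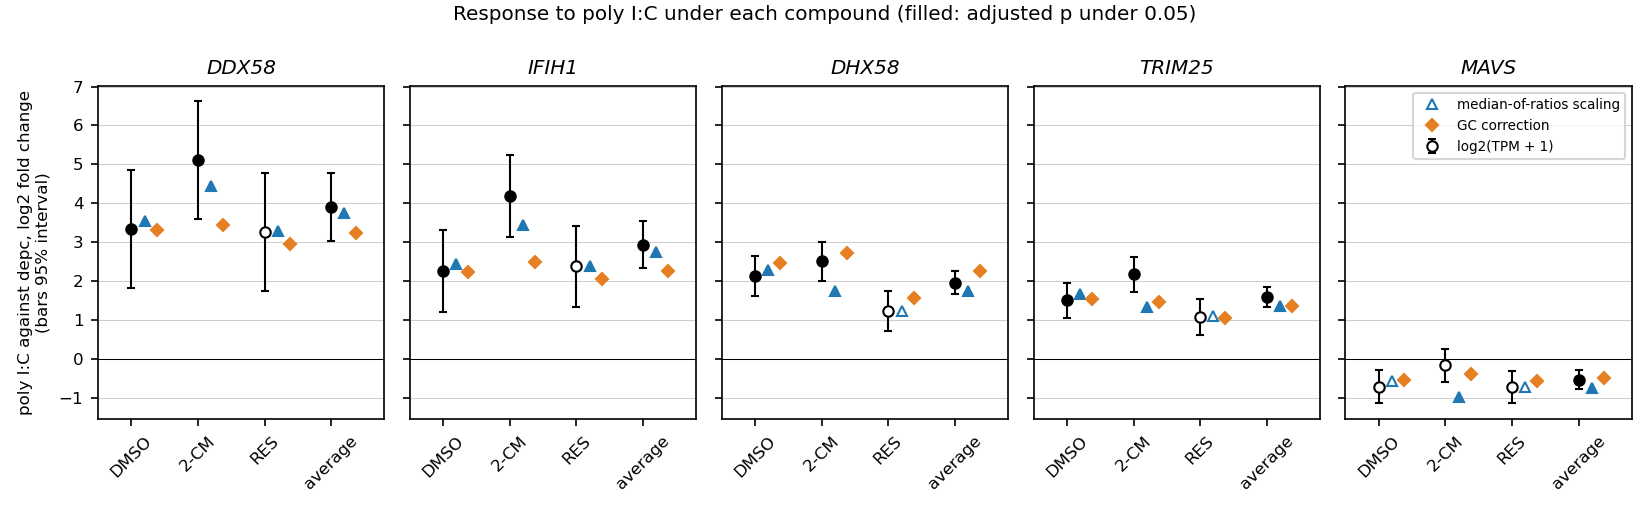
Log2 fold change of poly I:C against depc for each gene under each compound and averaged, with 95% intervals for the log2(TPM + 1) fit (circles). Triangles give median-of-ratios scaling and diamonds GC correction, and filled symbols have an adjusted p under 0.05. The 2-CM values of DDX58 fall from 5.11 to 4.44 and 3.44, and all MAVS values lie below 0.

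The authors' deposited tables gave the same directions from their own count model. For DDX58 the authors' deposited tables list log2 changes of 4.39 under DMSO, 5.39 under 2-CM and 4.0 under RES (adjusted p 1.96e-07 for RES). For IFIH1 the authors' deposited tables list 3.01, 3.98 and 2.87 (adjusted p 3.09e-05 for RES), and for DHX58 2.52, 1.71 and 1.35, the last with an adjusted p of 0.912. DDX58 and IFIH1 thus passed under RES in the authors' deposited tables, where the fit on log2(TPM + 1) called none. For TRIM25 the authors' deposited tables list 1.72, 1.27 and 1.14 (adjusted p 0.999 under RES). The authors' 2-CM values of DHX58 and TRIM25 were below their DMSO values, the reverse of the fit on log2(TPM + 1). For MAVS the authors' deposited tables list -0.54 under DMSO (adjusted p 0.701), -1.03 under 2-CM (adjusted p 1.08e-08) and -0.72 under RES (adjusted p 0.999).

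The difference between the responses under 2-CM and under DMSO was estimated directly. It was 1.76 for DDX58 (95% interval -0.39 to 3.91), 1.92 for IFIH1 (0.43 to 3.4), 0.38 for DHX58 (-0.34 to 1.10), 0.68 for TRIM25 (0.04 to 1.31) and 0.55 for MAVS (-0.04 to 1.14). None of the 5 was called by limma (adjusted p 0.161 to 0.404, 2 with an unadjusted p under 0.05, none called by limma-voom), where 0.0116% of all genes were called. An unadjusted p under 0.05 was found for 5097 of 17185 tested genes here. The median of all genes was 0.68 here, so DHX58, TRIM25 and MAVS were at or below it, and with median-of-ratios scaling those 3 turned to -0.56, -0.32 and -0.41. Leaving out a DMSO poly I:C library moved the DDX58 difference to 0.99 (replicate 2 out) or 2.54 (replicate 1 out). DDX58 and IFIH1 were 0.90 and 1.01 on the median-of-ratios scale and 0.13 and 0.26 after GC correction.

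The response under RES minus that under DMSO was -0.07 for DDX58 (95% interval -2.22 to 2.07), 0.12 for IFIH1 (-1.37 to 1.60), -0.90 for DHX58 (-1.62 to -0.18), -0.43 for TRIM25 (-1.07 to 0.21) and -0.02 for MAVS (-0.60 to 0.57). Limma called none (adjusted p 1 for each, 1 with an unadjusted p under 0.05), limma-voom called none, and 0% of all genes were called. An unadjusted p under 0.05 was found for 293 of 17185 tested genes. The intervals of DDX58 and IFIH1 are wide enough to hold a change of several fold in either direction. These differences share the DMSO libraries with each other and with the comparisons below.

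Without poly I:C, none of the 5 passed the test of 2-CM against DMSO: the values were -0.39 for DDX58, -0.17 for IFIH1, 0.32 for DHX58, -0.02 for TRIM25 and -0.07 for MAVS (limma adjusted p 0.721 to 0.969, none with an unadjusted p under 0.05, none called by limma-voom, 0.0349% of all genes called). RES without poly I:C gave 0.31 for DDX58, 0.42 for IFIH1, 1.04 for DHX58 (95% interval 0.53 to 1.54), 0.58 for TRIM25 and 0.39 for MAVS. None passed (DHX58 adjusted p 0.0693, 2 genes with an unadjusted p under 0.05, none by limma-voom), where 1.03% of all genes were called and 2524 of 17185 had an unadjusted p under 0.05. GC correction called DHX58 at 0.82 (adjusted p 0.0125).

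With poly I:C, 2-CM minus DMSO was 1.37 for DDX58, 1.75 for IFIH1 (95% interval 0.70 to 2.80), 0.70 for DHX58, 0.65 for TRIM25 and 0.48 for MAVS. Limma called none (IFIH1 adjusted p 0.0977, 4 genes with an unadjusted p under 0.05, none by limma-voom), 0.105% of all genes were called, and the median of all genes was 0.59. An unadjusted p under 0.05 was found for 5884 of 17185 tested genes. With median-of-ratios scaling DHX58, TRIM25 and MAVS turned to -0.05, -0.12 and -0.25. Leaving out a DMSO poly I:C library moved DDX58 to 0.59 (replicate 2 out) or 2.14 (replicate 1 out). GC correction called IFIH1 at 0.64 (adjusted p 0.0439) and took DDX58 to 0.27, DHX58 to 0.43, TRIM25 to 0.07 and MAVS to 0.09. RES with poly I:C differed from DMSO by 0.23 for DDX58, 0.54 for IFIH1, 0.14 for DHX58, 0.15 for TRIM25 and 0.38 for MAVS, none called and none with an unadjusted p under 0.05 (none by limma-voom, 0.157% of all genes called).

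Ratios between 2 members within a library do not depend on library scaling. They are not corrected for GC content, in which DDX58 and IFIH1 differ from MAVS. TRIM25 to MAVS was 1.35 and 1.43 in DMSO depc, 1.49 and 1.39 in 2-CM depc, and 1.73 and 1.43 in RES depc. With poly I:C the ratio was 6.94 and 6.72 in DMSO, 7.55 and 7.55 in 2-CM, and 5.12 and 6.38 in RES. The 2 sets were far apart and each was narrow. DDX58 to MAVS was between 0.0287 and 0.117 in the depc libraries and between 0.885 and 3.61 with poly I:C. Its replicates were far apart in DMSO poly I:C (3.28 and 1.07) and in RES poly I:C (0.885 and 3.16). DHX58 to MAVS was 0.114 to 0.272 with depc and 1.03 to 1.69 with poly I:C. In the depc libraries all 3 receptors were therefore below their adaptor in TPM, whereas DHX58 exceeded it in every poly I:C library, DDX58 in all but RES poly I:C replicate 1, and IFIH1 in all but DMSO poly I:C replicate 2 (0.793) and RES poly I:C replicate 1 (0.809). These crossings rest on gene TPM. Over exons 2 to 6 of MAVS, mean depth on the TPM scale was 19.1 to 34 with poly I:C. In each poly I:C library that depth was above the gene TPM of DHX58. The main DHX58 transcript alone held 9.66 and 7.53 TPM in DMSO poly I:C and 10.1 and 11.1 in 2-CM poly I:C, below MAVS.

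**Figure D3:**
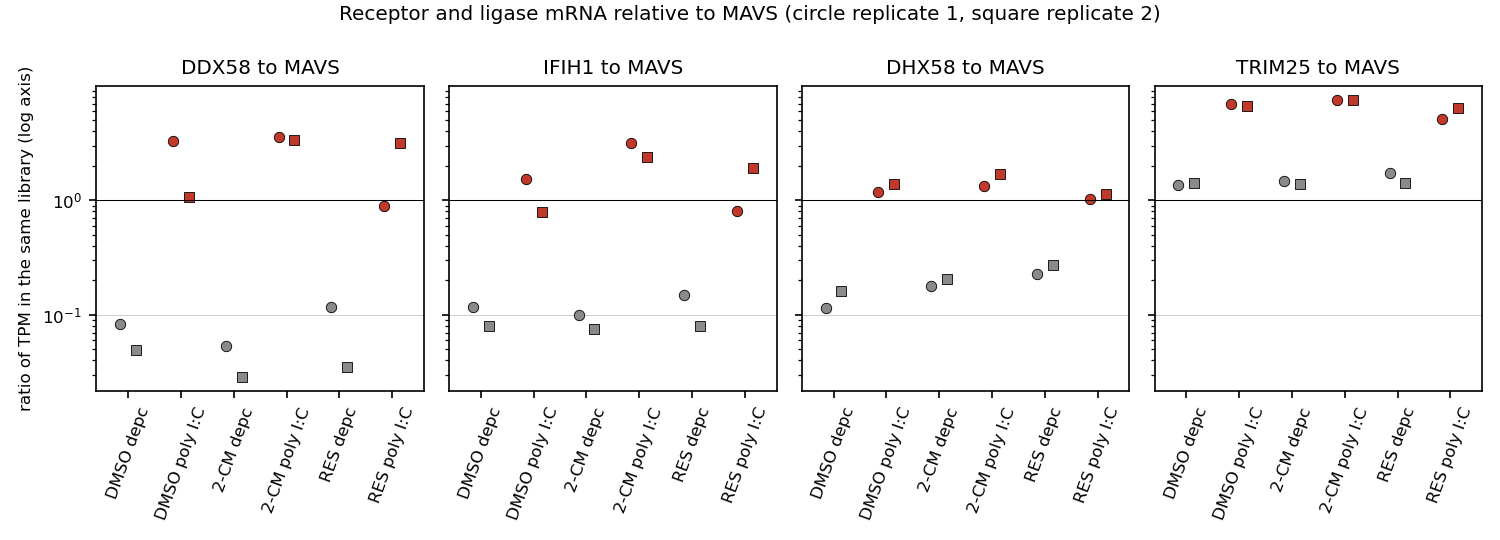
TPM of DDX58, IFIH1, DHX58 and TRIM25 divided by TPM of MAVS in the same library (log axis), by group. Circles are replicate 1 and squares replicate 2. TRIM25 to MAVS sits between 1.35 and 1.73 with depc and between 5.12 and 7.55 with poly I:C.

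The order of the 5 genes also changed. By mean TPM, TRIM25 and MAVS were first and second in every depc group, followed by DHX58, IFIH1 and DDX58. With poly I:C, TRIM25 was first, DDX58 second and MAVS last in all 3 groups, while IFIH1 and DHX58 exchanged places between groups. The place of MAVS rests on gene TPM, beside the deeper exons 2 to 6 given above. This order of means did not hold in every library: MAVS (16.3 TPM) was above DDX58 (14.5) and IFIH1 (13.2) in RES poly I:C replicate 1, and DHX58 (16.9) was above DDX58 (12.9), and MAVS (12) above IFIH1 (9.52), in DMSO poly I:C replicate 2. MAVS made up 31% to 37.5% of the summed TPM of the 5 with depc and 6% to 11.3% with poly I:C. Across groups, 2-CM poly I:C had the highest mean of each receptor and of TRIM25, and RES depc the highest mean of MAVS. That place of 2-CM depends on scaling for DHX58 and TRIM25, whose 2-CM minus DMSO values with poly I:C were negative with median-of-ratios scaling. For DDX58 the 2-CM poly I:C libraries were not apart from the others after GC correction, at 4.93 and 5.05 on the log2 scale beside 4.96 in DMSO poly I:C replicate 1 and 4.98 in RES poly I:C replicate 2. Nor were they for TRIM25, at 6.59 and 6.63 beside 6.71 in DMSO poly I:C replicate 2. The neighbours DMSO poly I:C and RES poly I:C did not differ beyond their spread for DDX58 (26.2 ± 18.9 and 31.9 ± 24.6 TPM, SD, n = 2) or IFIH1 (14.1 ± 6.44 and 21.4 ± 11.6).

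The change ran along whole transcripts. Mean depth with poly I:C exceeded that with depc in 18 of 18 exons of the main DDX58 transcript, 16 of 16 of IFIH1, 14 of 14 of DHX58 and 9 of 9 of TRIM25 under each compound. The median exon ratio of DDX58 was 19.6 (DMSO), 85.8 (2-CM) and 14.4 (RES), and that of TRIM25 was 3.2, 4.25 and 2.1. All 7 exons of MAVS were lower under each compound, with median ratios of 0.6, 0.776 and 0.605. The lowest ratios of DHX58 under DMSO and 2-CM were at its first exon, 1.82 and 1.09 against medians of 4.62 and 3.69. Under each of these 2 compounds, 13 of 14 DHX58 exons had no overlap between depc and poly I:C libraries. Exons of the same transcript are not independent, and no share over the exons of all genes was taken. Under 2-CM the median change of all genes was itself 0.61 on the log2 scale.

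**Figure D4:**
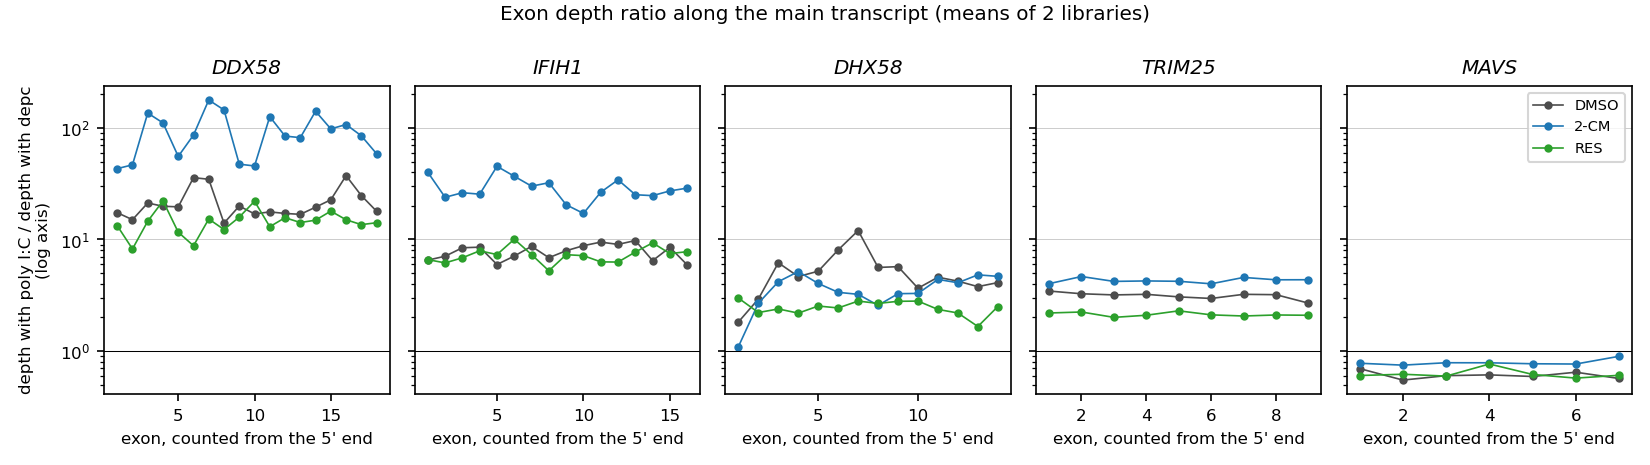
Mean depth with poly I:C divided by mean depth with depc (log axis) at each exon of the main transcript, counted from the 5′ end, for DMSO, 2-CM and RES. Points are ratios of means of 2 libraries. MAVS lies below 1 at all 7 exons and the other 4 genes lie above 1 at every exon.

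Of 28 annotated transcripts of the 5 genes, 15 were tested in a transcript fit. Averaged over the compounds, 11 were called higher and none lower (14 with an unadjusted p under 0.05, 11 called by limma-voom), where 1.7% of 47876 transcripts were called higher. Under 2-CM 9 were called higher, against 0.856% of all transcripts, and limma-voom called 1. The 2-CM calls of the main transcripts of DDX58, IFIH1, DHX58 and TRIM25 were each lost without any 1 of the 4 2-CM libraries. None was called under DMSO (0.14% of transcripts higher, 10 with an unadjusted p under 0.05, 1 by limma-voom) or under RES (0.0773%, 10 and none). The percentages are of transcripts called by limma after adjustment. Unadjusted and limma-voom counts over all transcripts were not taken, so those of the members have no share to be set against. DDX58 was 93.7% to 100% its main transcript, ENST00000379883.3, in every library, and MAVS was 93.2% or more ENST00000428216.4.

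TRIM25 and DHX58 both held transcripts annotated as retained introns. In TRIM25 they held 12.7% to 21.5% of the TPM over the 12 libraries, and the main transcript 76.9% to 86.4%. DHX58 was more mixed in most libraries. Models annotated as retained introns held 12.5% and 28.2% of its TPM in DMSO depc, 15.7% and 26.7% in 2-CM depc, and 25.3% and 16.1% in RES depc. After poly I:C they held 22.5% and 30.7% in DMSO, 34.8% and 45% in 2-CM, and 17.1% and 24.5% in RES. Both 2-CM poly I:C libraries were thus above the other 10. In them the main transcript ENST00000251642.8 held the lowest shares, 44.2% and 38.1%. The first of these was close to the 44.7% in DMSO poly I:C replicate 2. How many of all genes had such a separation was not counted, so it cannot be called particular to DHX58. The difference of response between 2-CM and DMSO was 1.42 for the retained-intron model ENST00000586522.5 (adjusted p 0.315, limma), 0.54 for the retained-intron model ENST00000592024.1 (adjusted p 0.576) and -0.13 for the main transcript (adjusted p 0.889), so none of the 3 passed. DHX58 rests on 174 to 1160 estimated reads a library, and StringTie's split between overlapping models is uncertain at that depth.

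**Figure D5:**
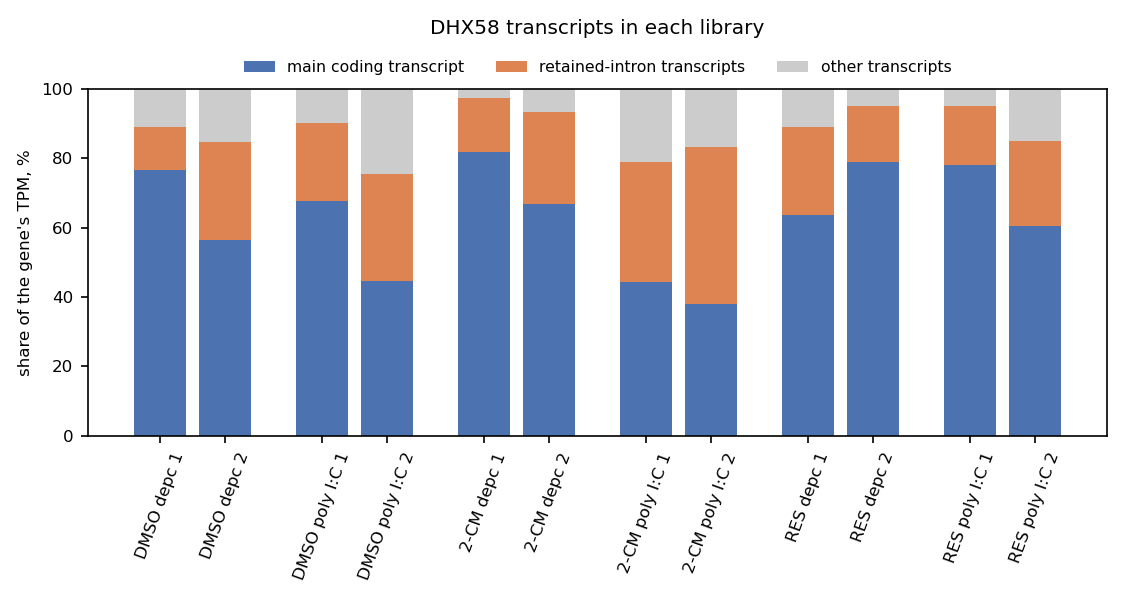
Share of DHX58 TPM in each library held by the main coding transcript (blue), by transcripts annotated as retained introns (orange) and by the others (grey), with replicate 1 left of replicate 2 in each group. Orange shares are highest in 2-CM poly I:C, at 34.8% and 45%.

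The genes whose log2(TPM + 1) was most like each member over the 12 libraries, among 10178 genes, were taken as the 3 with the highest correlation. For DDX58 they included IFI16 (Pearson's r 0.995) and IFIT1 (0.993). For IFIH1 they were IFI16 (0.996), DTX3L (0.995) and PARP9 (0.994). DHX58 was closest to HELZ2 (0.986), BATF2 (0.977) and OAS3 (0.973), and TRIM25 to XAF1 (0.994), PARP12 (0.992) and IFIT2 (0.989). MAVS was closest to LRP4 (0.981), SLC36A1 (0.979) and SUPT6H (0.979). All libraries share the treatment groups and the GC trend, so these values describe likeness only. After GC correction the 3 nearest to IFIH1 were ZNFX1 (0.994), IFI16 (0.992) and IFIT1 (0.991). IFIT1 was then nearest to DDX58 (0.996) and HELZ2 to DHX58 (0.995), and all 3 genes nearest to TRIM25 and to MAVS were others.

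The wider pathway was read through 3 lists, chosen with earlier results of these data known. Their counts beside the shares of all genes are therefore descriptive. Of 18 cofactors and activators of the receptors, 1 rose and none fell under DMSO, 13 rose and 1 fell under 2-CM, and 1 rose under RES. Over all genes the shares called higher and lower were 0.797% and 3.28%, 37.5% and 11.8%, and 0.198% and 0.244%. Their median change was 0.07 (DMSO), 1.76 (2-CM) and 0.39 (RES), beside medians of -0.14, 0.61 and -0.03 over all genes. The gene called under all 3 was OASL, an OAS-like protein that enhances RIG-I signalling: its mean TPM went from 0.636 to 67.6 under DMSO (log2 change 5.37, adjusted p 1.32e-05), from 1.19 to 72.4 under 2-CM (5.07) and from 1.93 to 60.4 under RES (4.39). Under 2-CM, DDX60, a helicase that aids RIG-I and MDA5 signalling, rose by 4.07 (adjusted p 0.0183) and the helicase DDX3X by 2.44 (adjusted p 0.0314). PPP1CA, a phosphatase subunit that activates both receptors by dephosphorylation, fell by 1.22 (adjusted p 0.024), from 651 to 278 mean TPM. Each of the 4 2-CM libraries, when left out, reduced the 2-CM calls in this list to 1, and median-of-ratios scaling gave 9 higher and 1 lower. With that scaling 20.3% and 23.5% of all genes were called higher and lower under 2-CM. GC correction gave 8 and 2 with a median of 0.66 under 2-CM, beside 14.3% and 15.7% of all genes. It gave 4 and 1 under DMSO, beside 7.05% and 8.68%. It took DDX60 to 2.28, DDX3X to 0.87 and PPP1CA to -0.64, and DDX3X lost its call with no filter on low genes.

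Of 22 adaptors, kinases and transcription factors around MAVS, 3 rose under DMSO: IFIT3, which bridges MAVS and TBK1, by 5.09 (adjusted p 0.0059), the interferon regulatory factor IRF7 by 2.64 (adjusted p 0.00829) and TRIM14, a MAVS-bound scaffold, by 1.67 (adjusted p 0.016). The DMSO calls fell to 0 without either DMSO depc library and to 1 without DMSO poly I:C replicate 2. Under RES only IFIT3 rose (3.84, adjusted p 0.0362), and that call was lost without any of 10 libraries. GC correction called 3 higher under RES in this list, and 3 higher and 1 lower among the cofactors, beside 1.33% and 1.83% of all genes. Under 2-CM 12 rose and 5 fell, beside shares of 37.5% and 11.8% of all genes. Those shares of all genes were 20.3% and 23.5% with median-of-ratios scaling and 14.3% and 15.7% after GC correction. IFIT3 rose by 6.45, TANK, a TBK1-binding scaffold, by 2.77 (adjusted p 0.0276) and the kinase TBK1 by 2.77 (adjusted p 0.0296). IRF3, the factor TBK1 activates, fell by 0.95 (adjusted p 0.0274), TBKBP1 by 0.81 (adjusted p 0.0291) and TRADD by 0.79 (adjusted p 0.0481). TANK (37% GC) and TBK1 (38.4%) are low in GC, while IRF3 (59.5%), TBKBP1 (65.5%) and TRADD (63.9%) are high, and GC correction took them to 0.90, 0.98, -0.53, -0.20 and -0.22, with the calls of TBKBP1 (adjusted p 0.18) and TRADD (adjusted p 0.198) lost. Median-of-ratios scaling instead took IRF3, TBKBP1 and TRADD to -1.79, -1.61 and -1.60. The count fell to 1 without any 1 of the 4 2-CM libraries, and the split was 7 higher and 7 lower with median-of-ratios scaling and 6 and 1 after GC correction. With low genes kept in the fit, the 2-CM calls dropped to 3 here, to 4 among the cofactors and to 1 among the negative regulators described next.

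Of 27 negative regulators, none rose and NLRX1, a mitochondrial inhibitor of MAVS, fell under DMSO (-1.12, adjusted p 0.0482, lost without any of 10 libraries), beside 0.797% and 3.28% of all genes. GC correction called 3 higher and 3 lower there, beside 7.05% and 8.68% of all genes in that fit, and the count ran from 0 to 6 over the alternatives. The NLRX1 call under DMSO was not kept in 8 of 11 alternatives, and its value was -0.65 with GC correction. None was called under RES (5 with an unadjusted p under 0.05 by limma, beside 2409 of 17185 tested genes, none called by limma-voom). Under 2-CM 13 rose and 5 fell, beside 37.5% and 11.8% of all genes, with a median of 0.61 equal to that of all genes. Those shares of all genes were 20.3% and 23.5% with median-of-ratios scaling and 14.3% and 15.7% after GC correction. Among the negative regulators, TAX1BP1 rose by 2.49 (adjusted p 0.0274) and the ligase ITCH, which with TAX1BP1 or PCBP2 promotes degradation of MAVS, by 2.35 (adjusted p 0.0329). NLRX1 fell by 1.18 (adjusted p 0.027), TTLL12 by 1.02 (adjusted p 0.0277) and UBXN1 by 0.82 (adjusted p 0.0274). No call was left without any 1 of the 4 2-CM libraries, and the split was 8 higher and 9 lower with median-of-ratios scaling and 5 and 4 after GC correction, which took TAX1BP1 to 1.11, ITCH to 0.78 (its call was lost), NLRX1 to -0.69 and TTLL12 to -0.53.

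Markers of other cell types, and the epithelial and acinar markers, are given by their summed levels, which were not tested. The summed TPM of 6 fibroblast and endothelial markers was 51.7 to 104 in depc libraries and 23.5 to 59.6 in poly I:C libraries. Within each compound the poly I:C pair lay below the depc pair. COL1A1 made up most of the sum and DCN reached 18 TPM, while COL1A2, PDGFRA, PECAM1 and VWF were at 0.258 TPM or less in every library. The 5 epithelial markers summed to 1680 to 3530 TPM with depc and 1100 to 1730 with poly I:C. KRT8 and KRT18 made up nearly all of it, and the ranges overlap over the compounds but not within any of them. The 5 basal and myoepithelial markers, mainly ACTA2, summed to 22.8 to 35.5 TPM with depc and 15 to 31.1 with poly I:C, again without overlap within any compound. The sum of the 12 acinar markers was 5.14 to 7.05 with depc and 1.86 to 4.73 with poly I:C under DMSO, 4.01 to 5.5 and 7.06 to 8.83 under 2-CM, and 4.69 to 8.96 and 3.65 to 6.87 under RES. The 6 immune markers, led by CD14, summed to 8.9 to 19.1 with depc and 7.87 to 15.4 with poly I:C, which overlap, though under 2-CM the sums were 13.5 to 16.2 and 7.87 to 8.21. Their part in the changes of the 5 genes was not tested.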

How the data were processed

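Values came from 12 StringTie 2.0.4 output files, 1 per library, per the file headers run on GENCODE 32 transcripts only and with no strand option. The submitters' processing notes also name bcl2fastq 2.20, HISAT2 2.1.0, hg38 and DESeq2. Per the file headers, each transcript carries a TPM (abundance per length scaled to one sum in every library), an FPKM and a coverage signal, all made by StringTie. The authors' 3 deposited tables of comparisons give log2 fold changes and p-values, made by the authors with filters not given in the sources used here.

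Gene TPM is the sum over a gene's transcripts. Genes with at least 1 TPM in at least 2 libraries (17185) were fitted with limma 3.58.1 (R 4.3.3) on log2(TPM + 1), with 6 group means and a mean-variance trend, and Benjamini-Hochberg adjustment over all genes in each of 10 comparisons. Residual degrees of freedom were 6. Transcripts drew 3.15 to 4.99 gigabases of coverage per library. Reads were estimated as coverage times length over the 101-base read length. GC correction subtracted a lowess curve (span 0.3) of each library's deviation from the gene mean against GC content. Intervals of fold changes are at 95%. Simulated data served to test the fit. Alternatives were FPKM, upper-quartile and median-of-ratios scaling, estimated reads as CPM, limma-voom, other filters and pseudocount, the replicate block, only the groups compared, GC correction and each library left out.

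The 5 genes, the pathway lists and the markers were chosen with earlier results of these data known. For each list and direction, up to 3 called genes with the largest change and a mean of at least 5 TPM in the higher group were named, and for likeness the 3 genes with the highest Pearson's r; some genes that this rule names are not reported here. Members' transcripts were tested in a fit over 47876 transcripts.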

Additional observations from a re-analysis of the deposited data

How the results depend on the processing

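The poly I:C direction of the 5 genes reversed in none of 455 alternative values, and 5 were called on average over the compounds without any single library. Under DMSO the 4 genes called became 5 with GC correction or a TPM minimum of 5, 3 with no filter, 2 with the replicate block and 0 with only the groups compared, and 0 to 4 with 1 library left out, 0 being without DMSO depc replicate 1. Under 2-CM the 4 became 5 with upper-quartile scaling, median-of-ratios scaling or GC correction, and 2 to 4 with 1 library left out, 2 being without either 2-CM depc library or 2-CM poly I:C replicate 1. Under RES the 0 became 2 with upper-quartile scaling, median-of-ratios scaling, a TPM minimum of 5 or CPM, 1 with no filter or limma-voom, and 5 with GC correction. GC correction also called 1 gene for RES against DMSO with depc and 1 for 2-CM against DMSO with poly I:C. With GC correction, the shares of all genes called higher and lower were 7.05% and 8.68% under DMSO. They were 14.3% and 15.7% under 2-CM and 1.33% and 1.83% under RES. The causes were not tested.

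Labels give replicate numbers 1 and 2 in every group, and nothing in them says what a number shares. Not every pair of groups passed the check of pairing: 10 of 15 pairs of groups had a correlation of same-numbered deviations over 0.1, from -0.796 to 0.761. The 10 pairs among the 5 groups other than RES poly I:C ran from 0.153 to 0.761, and the 5 pairs with RES poly I:C from -0.796 to -0.307. The replicate block left 2 of the 4 calls under DMSO.

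Signs between compounds turned with scaling. For 2-CM minus DMSO responses, upper-quartile and median-of-ratios scaling gave -0.34 and -0.56 for DHX58, -0.16 and -0.41 for MAVS, and -0.075 and -0.32 for TRIM25. DHX58 was -0.047 with CPM and -0.11 with limma-voom, and TRIM25 -0.068 with GC correction. For RES minus DMSO, IFIH1 was -0.029 (upper quartile), -0.055 (median of ratios), -0.026 (CPM), -0.14 (limma-voom) and -0.17 (GC correction). For 2-CM against DMSO with depc, GC correction gave 0.14 for DDX58, 0.38 for IFIH1 and 0.14 for TRIM25. MAVS was 0.0013 (upper quartile) and 0.16 (median of ratios), and TRIM25 was 0.011 (FPKM), 0.046 (upper quartile), 0.20 (median of ratios), 0.0084 (CPM) and 0.0078 (limma-voom). For 2-CM against DMSO with poly I:C, upper-quartile scaling gave -0.16 for MAVS and -0.029 for TRIM25, and median-of-ratios scaling -0.047 for DHX58, -0.25 for MAVS and -0.12 for TRIM25. For RES against DMSO with poly I:C, upper-quartile scaling, median-of-ratios scaling and GC correction gave -0.067, -0.088 and -0.13 for DDX58, -0.16, -0.18 and -0.079 for DHX58, and -0.16, -0.18 and -0.095 for TRIM25.

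Leaving out 1 library gave, for RES minus DMSO, -0.92 to 0.78 for DDX58, -0.44 to 0.67 for IFIH1 and -0.14 to 0.11 for MAVS. It gave -0.41 to 0.078 for IFIH1, -0.16 to 0.025 for MAVS and -0.067 to 0.024 for TRIM25 in 2-CM against DMSO with depc. In RES against DMSO it gave -0.32 to 0.94 for DDX58 and -0.0033 to 0.85 for IFIH1 with depc, and -0.62 to 1.08 and -0.014 to 1.09 with poly I:C. Counts over all genes ranged, over the settings, from 6 to 2704 under DMSO (701 reported), 649 to 11850 under 2-CM (8475) and 0 to 543 under RES (76). For 2-CM minus DMSO responses they ranged from 0 to 55 (2 reported), for RES minus DMSO from 0 to 39 (0), for 2-CM against DMSO from 0 to 97 with depc (6) and 0 to 755 with poly I:C (18), and for RES against DMSO from 0 to 1933 with depc (177) and 0 to 1189 with poly I:C (27). With 1 library left out, the first 3 ranged from 25 (without DMSO depc replicate 1) to 872, from 37 (without 2-CM depc replicate 1) to 10141, and from 15 (without RES poly I:C replicate 2) to 53, and the averaged comparison (5361) from 2345 (without 2-CM depc replicate 2) to 9181. DDX58 in depc libraries rests on the fewest reads, from 76.1.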

Other observations

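Across the 12 libraries, DDX58 and IFIH1 had a Pearson's r of 0.989, and DHX58 and TRIM25 one of 0.978, on log2(TPM + 1). MAVS had values from -0.612 to -0.53 with the other 4, and from -0.919 to -0.831 after GC correction. All points share the treatment groups. Depth over exons 2 to 6 of the main MAVS transcript was 1.86 to 2.79 times that over its last exon.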
